A study of Saccharomyces cerevisiae with 3 samples.

Results

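The mitochondrial ribosomal protein genes of baker's yeast were examined in cells lacking the transcription factor Yap1 and in wild-type cells. Both strains were kept for 1 h with As(III), which is arsenite, at 0.2 mM. The members are the genes whose platform symbol starts with MRPL, MRPS, MRP or RSM followed only by a number. The rule found 65 genes of the 5539 named on the array, each with 2 spots. RefSeq lists all 65 symbols among its yeast genes. By the unified names of ribosomal proteins, 37 belong to the large subunit. A further 27 were counted with the small subunit, among them RSM22, which carries a small subunit name but is known as an assembly factor. MRP8 matches the rule by its symbol alone and was counted with neither subunit. The labels name no strain background and do not say whether the deletion mutant is 1 clone.

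Mitochondrial ribosomes stand in the mitochondrial matrix and make the few proteins encoded by mitochondrial DNA, which are mainly core subunits of the respiratory chain and ATP synthase. Nearly all proteins of this ribosome are encoded in the nucleus, made on cytosolic ribosomes and imported. Many have counterparts in bacterial ribosomes, while others are found only in mitochondria. In yeast, the messages of many of these genes are bound by the RNA-binding protein Puf3, which ties their fate to the carbon source.

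The study used 3 two-colour arrays. On each, RNA of the yap1 deletion mutant carried Cy3 and RNA of the wild type carried Cy5, with no dye swap, so a dye effect of a gene and a difference between the strains cannot be told apart. The sources used here do not say which strain is on top of the ratio or which logarithm was taken. A gene is therefore said to lie on the high or the low side of the array median, with no strain attached and no fold change. Values are deposited log ratios, averaged over a gene's spots, minus each array's median over named genes, which was −2.11, −2.30 and −1.59 on replicates 1, 2 and 3. A gene was called when the mean of 3 arrays differed from 0 at a limma adjusted p under 0.05, two-sided, over all 5539 genes. YAP1, the deleted gene, lay at −1.43, −0.22 and −0.74, which is low on every array but close to the middle on replicate 2, and its mean of −0.80 ± 0.61 (SD, n = 3) had an adjusted p of 0.0323. Dropping replicate 1 gave −0.48 (adjusted p = 0.226) and dropping replicate 3 gave −0.83 (adjusted p = 0.197), neither of them called. No label ties an array to a culture of its own. The p-values therefore rest on array-to-array spread alone, and that may be technical.

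One stretch of replicate 1 went against its spot names. The table's spots fall into 48 runs of 272. In the last 4 runs, with 453 genes, the coefficient of Pearson across genes was 0.026 between replicates 1 and 2 and −0.012 between replicates 1 and 3, against 0.676 and 0.678 for the 5086 genes elsewhere. Between replicates 2 and 3 it was 0.743 in these 4 runs. When the replicate 1 value of each spot was taken from 16 spots further on in the same run, the coefficients became 0.800 and 0.759. Of the shifts searched, 16 gave the highest coefficient across spots between replicates 1 and 2 in these runs. The 0.800 therefore reflects that choice, while replicate 3 took no part in it. A second check uses unnamed positions and the first spots of each run. It is not independent of replicate 2, on which both the positions and the shift of 16 spots were picked. The positions, 8 in each run, hold no gene symbol and were low on replicate 2 in the other 44 runs. At these the deposited median of replicate 1 was −1.42 in the last 4 runs, against −3.05 in the other 44. The first 16 spots of a run had a median of −3.05 in the last 4 runs, against −1.77 in the others. So the replicate 1 values listed for these genes matched other spots. The stretch holds 9 members: RSM18, RSM19, MRPL9, MRPL19, MRPL25, MRPL40, MRP17, MRPS9 and MRPS12. Results are given as listed and with replicate 1 moved by 16 spots in these runs, and the moved setting was picked with the data in view.

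**Figure D1:**
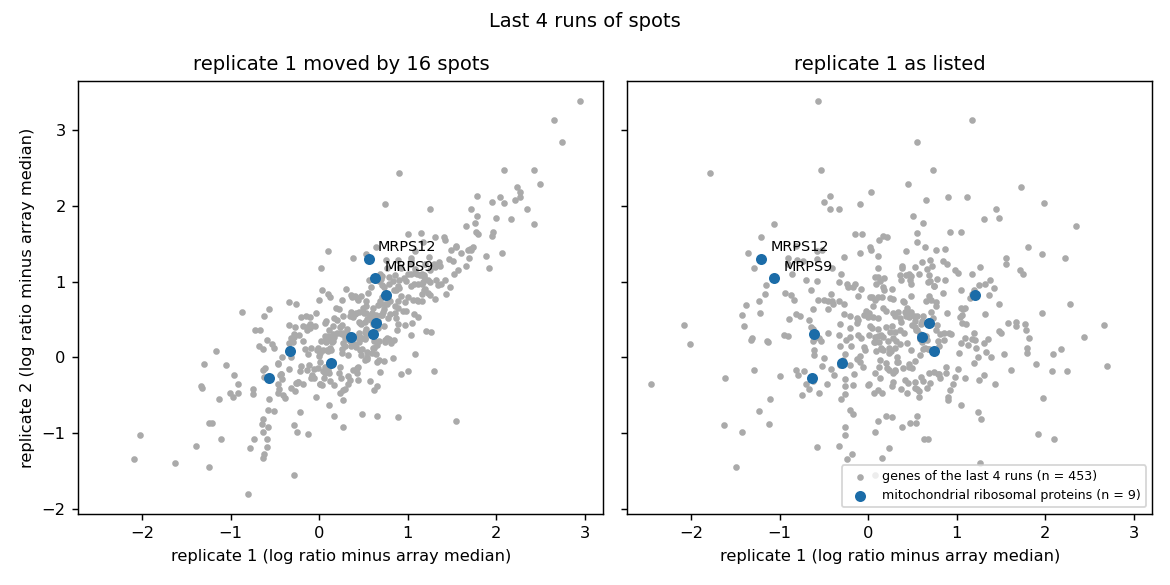
Replicate 2 against replicate 1 for the 453 genes of the last 4 runs (grey points) and the 9 mitochondrial ribosomal protein genes among them (blue points); both axes are log ratios minus the array median on the deposited log scale. With replicate 1 moved by 16 spots (left panel) the points follow a rising line (Pearson 0.800). As listed (right panel) they form a round cloud (0.026). The shift was picked for the highest coefficient between these 2 replicates in these runs. MRPS9 and MRPS12 are named in both panels.

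As a group, the mitochondrial ribosomal protein genes lay near the middle of the array, and most did not pass the test. As listed, 9 of 65 were called, 2 high and 7 low. That is 13.8% of the members, where 28.5% of all named genes were called. On the high side it is 3.08%, where 16.0% of all named genes were called, and on the low side 10.8%, where 12.5% were called. With replicate 1 moved, 14 members were called (21.5%, background 33.6%), 6 high (9.23%, background 18.4%) and 8 low (12.3%, background 15.2%). These were the 9 called as listed and 5 more. Without replicate 3, as listed, 2 of the 9 were still called (MRPL35 and MRPS28). Without replicate 2 it was 6, and without replicate 1 it was 8. The share of all named genes called in these fits of 2 arrays is not given here, so the counts are not read as a trait of the members.

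The median of the 65 means was −0.17, against −0.02 for all named genes. On replicates 1, 2 and 3 the members' median was −0.08, −0.19 and −0.19. Their means ran from −1.38 to 1.48, with 47 within 0.5 units of 0. Their quartiles were −0.40 and 0.18, against −0.42 and 0.44 for all genes. On all 3 arrays 36 members (55.4%) kept 1 sign, 25 of them low and 11 high, where 58.9% of all genes kept 1 sign. Across the members as listed, Pearson's r was 0.511 for replicates 1 and 2, 0.512 for 1 and 3, and 0.716 for 2 and 3, and it was 0.694, 0.658 and 0.716 with replicate 1 moved. These are correlations across 65 genes of the same 3 arrays, which are not independent. These are bulk samples, in which a change in the mix of cells and a change in RNA per cell cannot be told apart.

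**Figure D2:**
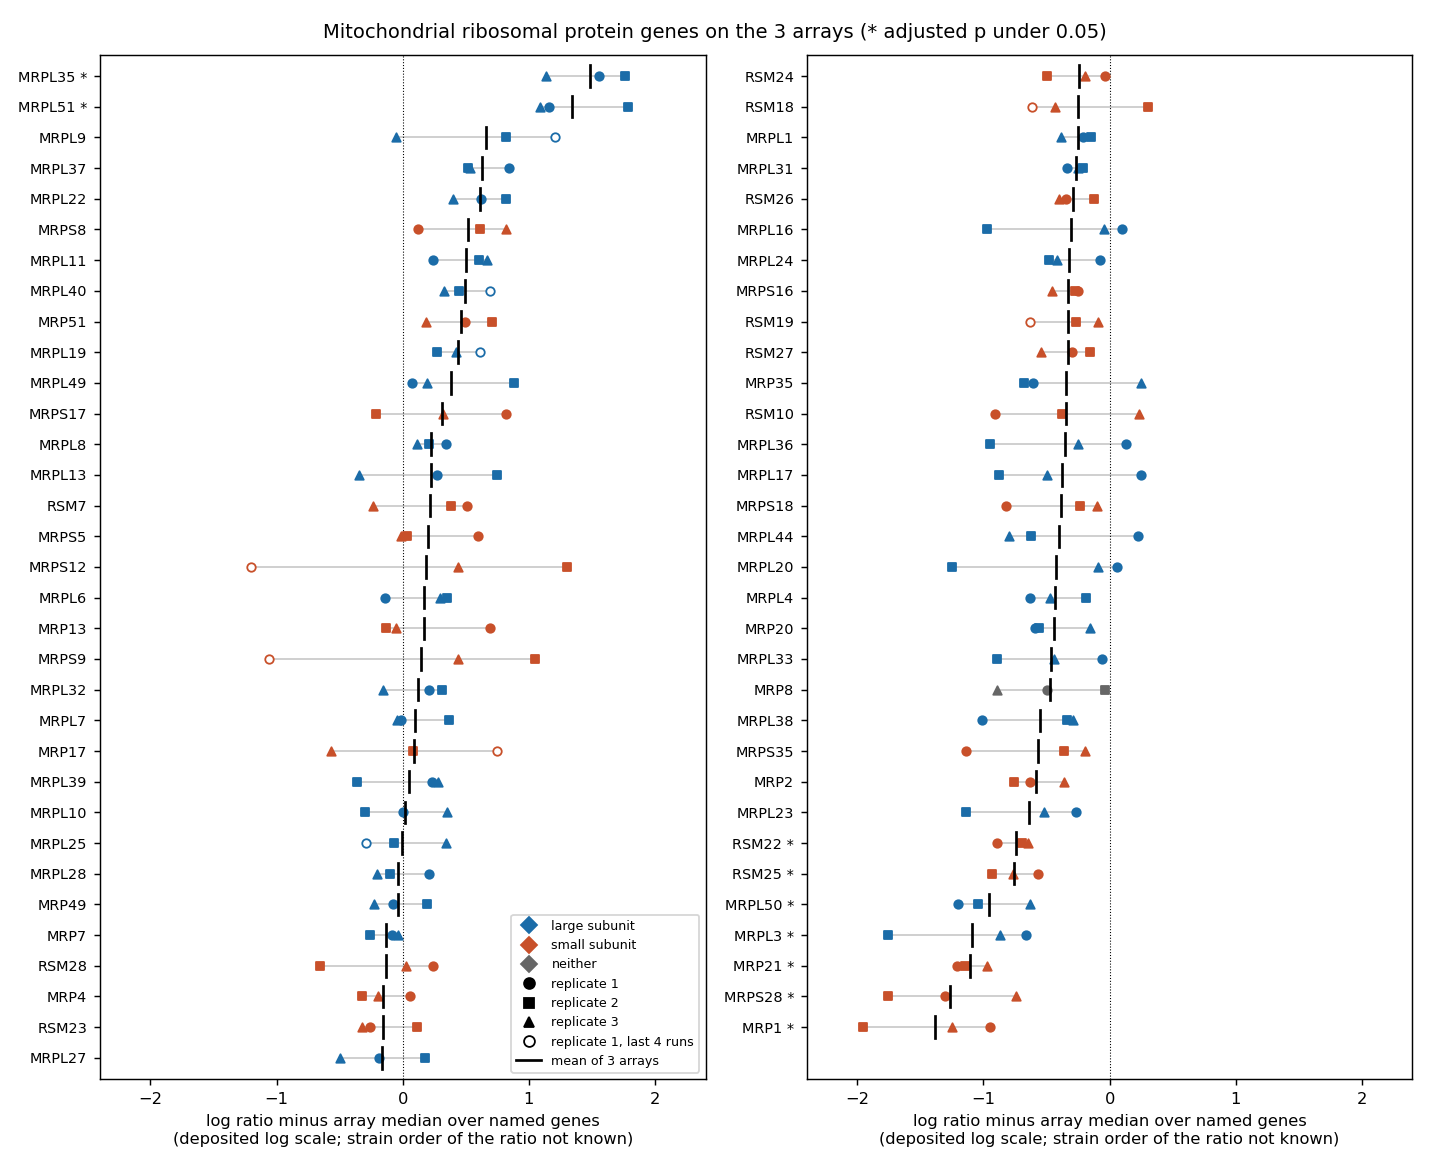
Log ratio minus the array median (x axis, deposited log scale) of each of the 65 genes on the 3 arrays, ordered by the mean from the high end (top left) to the low end (bottom right). Blue marks the large subunit, orange the small subunit and grey MRP8; symbols mark the arrays, open circles the replicate 1 values of the last 4 runs as listed, black bars the mean and asterisks the 9 called genes. Only MRPL35 and MRPL51 have means above 1, and the open circles of MRPS9 and MRPS12 stand far from their other points.

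Both members called on the high side as listed encode mitochondria-specific proteins of the large subunit. MRPL35 (YDR322W), the protein mL38, had values of 1.56, 1.76 and 1.13. MRPL51 (YPR100W), the protein mL43, had 1.16, 1.78 and 1.09. On each array, every other member lay below both of these genes, with the exception of MRPL9 on replicate 1 as listed. MRPL35 averaged 1.48 ± 0.32 (SD, n = 3; limma adjusted p = 0.000341) and MRPL51 averaged 1.34 ± 0.38 (SD, n = 3; adjusted p = 0.000894). The mean SD between repeated spots was 0.140 for MRPL51, below the median of 0.274 over all genes, and 0.253 for MRPL35, near that median. MRPL35 was called without any 1 array, while MRPL51 missed the threshold without replicate 3 (1.47, adjusted p = 0.0527). On the chromosome, MRPL35 stands beside ASP1 (1.81, adjusted p = 4.16e-05), an asparaginase gene, and MRPL51 beside SNT309 (1.29, adjusted p = 0.000809), a splicing factor gene. The 9 called members have 15 chromosomal neighbours with a value. Of these neighbours 4 were called on the side of the member and 10 were not called. The remaining 1, RPS27A beside RSM22, was called on the other side (1.60, adjusted p = 0.00144). Over all named genes 28.5% were called, which is near the share among these neighbours.

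Of the 7 called low members, 5 carry small subunit names. MRP1 (YDR347W) encodes mS43, which has a fold like that of iron and manganese superoxide dismutases. It had values of −0.95, −1.95 and −1.25, a mean of −1.38 ± 0.51 (SD, n = 3) and an adjusted p of 0.00101. RSM26, which encodes mS42, the other protein with this fold in the small subunit, had −0.35, −0.12 and −0.40 and was not called (adjusted p = 0.361). MRP1 thus stood lowest of the members, and RSM26 closer to their median.

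MRPS28 (YDR337W), the counterpart of bacterial S15, had −1.30, −1.76 and −0.74, with a mean of −1.27 ± 0.51 (SD, n = 3; adjusted p = 0.00189). MRP21 (YBL090W), the counterpart of bacterial S21, had −1.21, −1.14 and −0.97, with a mean of −1.11 ± 0.12 (SD, n = 3; adjusted p = 0.00244). Both genes lay low on every array, MRP21 with the narrower spread between arrays. Repeated spots differed by up to 1.02 units for MRP21 and 0.997 units for MRPS28. RSM25 (YIL093C), the mitochondria-specific mS23, had −0.57, −0.93 and −0.77 (mean −0.76 ± 0.18, SD, n = 3; adjusted p = 0.0233). RSM22 (YKL155C), related to methyltransferases and linked to small subunit assembly, had −0.89, −0.70 and −0.65 (mean −0.75 ± 0.13, SD, n = 3; adjusted p = 0.0244). RSM25 and RSM22 were the nearest to the threshold among the called members. RSM22 missed it in each fit of 2 arrays, and RSM25 missed it without replicate 2 or replicate 3. RSM22 also missed it from the first spot alone (−0.56, adjusted p = 0.159) and with the trend of the ratio on the SD between a gene's spots removed (−0.58, adjusted p = 0.0747), and RSM25 from the last spot alone (−0.71, adjusted p = 0.0824).

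The 2 large subunit members on the low side were MRPL3 and MRPL50. MRPL3 (YMR024W) encodes mL44, which has a fold like that of ribonuclease III. It had −0.66, −1.75 and −0.87, with a mean of −1.09 ± 0.58 (SD, n = 3; adjusted p = 0.00586), and replicate 2 stood lowest. MRPL50 (YNR022C), the counterpart of bacterial L9, had −1.20, −1.04 and −0.63, with a mean of −0.96 ± 0.29 (SD, n = 3; adjusted p = 0.00754). Its repeated spots had a mean SD of 0.609, wider than the median of 0.274. MRPL50 was not called from its first spot alone (−0.78, adjusted p = 0.0579), nor with the trend on spot scatter removed (−0.50, adjusted p = 0.118). In all 3 arrays both spots of each of the 7 low members were below the median, and both spots of each high member were above it. Without replicate 3, MRP1, MRP21, MRPL3 and MRPL50 missed the threshold (adjusted p = 0.0678, 0.0609, 0.0971 and 0.0669), with means still between −1.45 and −1.12. MRPL3 also missed it without replicate 2 (−0.76, adjusted p = 0.0976).

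MRPS9 and MRPS12 had the widest spread between arrays of all members as listed. MRPS12 (YNR036C) encodes the counterpart of bacterial S12, a protein of the decoding site, and had −1.20, 1.30 and 0.44. MRPS9 (YBR146W), the counterpart of S9 in the head of the small subunit, had −1.06, 1.05 and 0.44. In both genes replicate 1 was low while the other arrays were high. Both stand in the stretch described above. With replicate 1 moved, its value was 0.56 for MRPS12 and 0.63 for MRPS9, so that all 3 arrays were high. The means were then 0.77 ± 0.47 for MRPS12 (SD, n = 3; limma adjusted p = 0.0166) and 0.71 ± 0.31 for MRPS9 (SD, n = 3; adjusted p = 0.0225), against 0.18 ± 1.27 and 0.14 ± 1.09 as listed (adjusted p = 0.724 and 0.765). In a fit that used replicates 2 and 3 alone for the stretch, MRPS12 was called (0.87, adjusted p = 0.0227) and MRPS9 was just short (0.74, adjusted p = 0.0506).

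Moving replicate 1 also turned the sign of the mean of MRP17, RSM18 and MRPL25. MRP17, the counterpart of bacterial S6, had 0.75, 0.08 and −0.57 as listed, and a replicate 1 value of −0.33 when moved, which turned its mean from 0.09 to −0.27 (adjusted p = 0.389). RSM18, the counterpart of S18, turned to 0.16 from −0.25 as its replicate 1 value became 0.60 in place of −0.62. None of the 4 large subunit members of the stretch was called in either setting. The remaining members added by the moved setting lie outside the stretch: MRPL22 (0.61, adjusted p = 0.0447), MRPL37 (0.63, adjusted p = 0.0381) and MRPL23 (−0.64, adjusted p = 0.0405). As listed these 3 had nearly the same means and adjusted p-values of 0.0588, 0.0516 and 0.0622, just short of the threshold. MRPL20, the mitochondria-specific mL58, had the widest spread outside the stretch, with 0.06, −1.25 and −0.09, where replicate 2 stood apart.

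Between the subunits, the large subunit genes lay slightly higher than the small subunit genes. As listed, the large subunit median was 0.06, −0.15 and −0.09 on replicates 1, 2 and 3, and the small subunit median was −0.35, −0.23 and −0.20. The difference, large minus small, was 0.40, 0.08 and 0.11, with a mean of 0.20 ± 0.18 (SD, n = 3 arrays). With replicate 1 moved it was 0.33 on that array and the mean was 0.18 ± 0.14 (SD, n = 3 arrays). The difference was above 0 on each array but close to its own spread, and 3 arrays cannot give a two-sided sign-flip p under 0.25, so no test is given. In the moved setting 4 large and 2 small subunit members were called high (10.8% and 7.41%, background 18.4%), and 3 large and 5 small subunit members low (8.11% and 18.5%, background 15.2%). Repeated spots scattered more in the small subunit, with a median SD of 0.349, against 0.253 in the large subunit. Across all genes the ratio was lower where this scatter was larger (Spearman −0.462 over 5539 genes), and across the members likewise (−0.264 over 65). After that trend was removed over all genes, the difference between the subunits was 0.030.

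**Figure D3:**
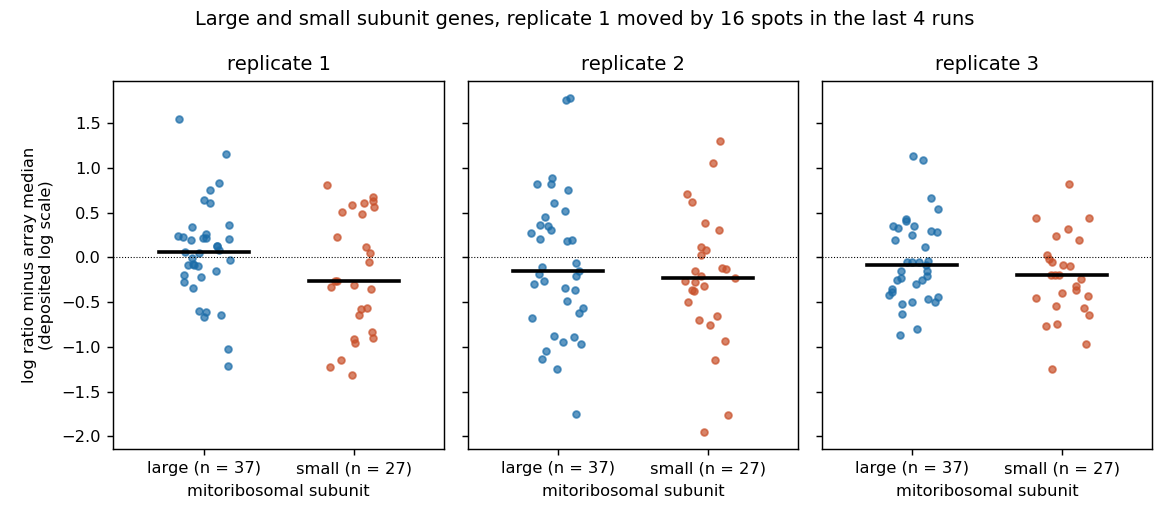
Log ratio minus the array median (y axis, deposited log scale) of 37 large subunit genes (left in each panel) and 27 small subunit genes (right), 1 point a gene and 1 panel an array, with replicate 1 moved by 16 spots in the last 4 runs. Black bars are medians; the large subunit bar is above the small subunit bar by 0.33, 0.08 and 0.11 on replicates 1, 2 and 3, and the points overlap throughout.

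Proteins with a bacterial counterpart and mitochondria-specific proteins had similar medians. The 41 genes of the first kind had a median of −0.13 and the 22 of the second −0.21, and the difference was −0.01, −0.06 and 0.19 on the 3 arrays. The mitochondria-specific genes held both ends of the order, MRPL35 at the top and MRP1 at the bottom. Their means had an SD of 0.66 across genes, against 0.46 among those with a counterpart. As listed, 5 of the 22 (22.7%) were called, and 3 of the 41 (7.32%), where 28.5% of all genes were called. With replicate 1 moved it was 6 of the 22 (27.3%) and 7 of the 41 (17.1%), where 33.6% of all genes were called.

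Genes were also grouped by place in the ribosome, after the values were seen. In some of these groups the means lay on both sides of 0. At the exit tunnel of the large subunit, MRPL22 (0.61) and MRPL40 (0.49) had means above 0, while MRP20 (−0.44) and MRPL4 (−0.43) had means below it, and none of the 4 was called as listed. MRPL22 had 0.62, 0.82 and 0.40, and MRP20 had −0.59, −0.56 and −0.16, so the arrays of these 2 genes do not overlap. At the stalk that binds translation factors, MRPL11 (0.50) and MRPL19 (0.44) had means above 0 and MNP1, the counterpart of bacterial L7/L12, had −0.63, none of them called. In the head of the small subunit, RSM7 (0.22), SWS2 (0.11) and MRPS9 (0.14 as listed) had means above 0, and RSM10 (−0.35), RSM19 (−0.33) and MRP2 (−0.58) below it. As listed, the adjusted p of these 6 ran from 0.0701 (MRP2) to 0.765 (MRPS9), and MRPS9 was called high when moved. On the decoding side and body of the small subunit the 4 genes picked all had means above 0. These were 0.52 for MRPS8, 0.35 for NAM9, 0.20 for MRPS5 and 0.18 for MRPS12 as listed. None of these 4 was called as listed, and MRPS12 was called high when moved. Small subunit members placed in no group lay on both sides of 0. Among them MRPS28 (−1.27, called low), MRPS18 (−0.39) and MRPS16 (−0.33) had means below it, and MRPS17 (0.31) and MRP51 (0.46) above it. MRPS12 and RSM19 are neighbours on the chromosome, the only adjacent pair among the members, with moved means of 0.77 and −0.31.

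The members nearest to the array median were MRPL25, MRPL10, MRPL28 and MRP49. MRPL10, the counterpart of bacterial L15, had 0.01, −0.30 and 0.35, and its repeated spots had an SD of only 0.037. MRPL28 had 0.20, −0.10 and −0.21, and MRP49 had −0.08, 0.19 and −0.23. MRPL25 had −0.29, −0.07 and 0.35 as listed and 0.13 on replicate 1 when moved. Values of these 4 genes stood on both sides of the median, with adjusted p-values of 0.916 to 0.992.

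A further 13 proteins of this ribosome have symbols that the rule does not match. As listed, 1 of them (7.69%) was called, where 28.5% of all genes were. IMG1, the counterpart of bacterial L19, had 0.86, 1.39 and 0.58, with a mean of 0.94 ± 0.41 (SD, n = 3; adjusted p = 0.00966). It lay high on every array, but its adjusted p was 0.126 when replicate 2 was dropped and 0.0752 when replicate 3 was. With the trend on spot scatter removed its mean was 0.42 (adjusted p = 0.189). In the moved setting, FYV4 (−0.65, adjusted p = 0.0382) and MRX14 (−0.59, adjusted p = 0.0495) were called low as well. The other means were 0.55 for IMG2, 0.49 for MHR1 as listed, 0.43 for QRI5, 0.42 for RML2, 0.35 for NAM9, 0.11 for SWS2 and 0.0041 for EHD3. On the other side of 0 stood YML6 at −0.25, PET123 at −0.34 and MNP1 at −0.63. MHR1 lies in the displaced stretch, and its mean was 0.20 with replicate 1 moved. The median of the 13 was 0.11 as listed and 0.010 without replicate 2. They too lay on both sides of the array median.

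The cytosolic ribosomal protein genes, whose products build the ribosomes outside mitochondria, stood far from the mitochondrial ones. The medians were −0.17 for the 65 mitochondrial and 2.07 for the 132 cytosolic ribosomal protein genes. The difference, mitochondrial minus cytosolic, was −2.16, −2.32 and −2.22 on the 3 arrays, or −2.24 ± 0.08 (SD, n = 3 arrays). The gap exceeds the spread between arrays, but all 3 share the same dye order, so that spread does not measure a dye effect. No mitochondrial member reached the cytosolic median, and 114 of the 132 cytosolic genes lay above MRPL35. Of the cytosolic genes 125 were called high (94.7%) and 2 low (1.52%), where 16.0% and 12.5% of all named genes were. RPS28A had 2.79, 2.89 and 2.64, and RPL1B had 2.45, 2.88 and 2.62. The gap does not rest on the centring, since both lists share it: with values as deposited it was −2.24 as well. It was −1.73 after the trend with spot scatter was removed. Repeated spots scattered less in the cytosolic genes, with a median SD of 0.118, against 0.299 in the mitochondrial ones. Most cytosolic ribosomal proteins are encoded by pairs of nearly identical genes, and RNA of 1 copy can bind spots of the other, so values of single paralogs are uncertain.

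**Figure D4:**
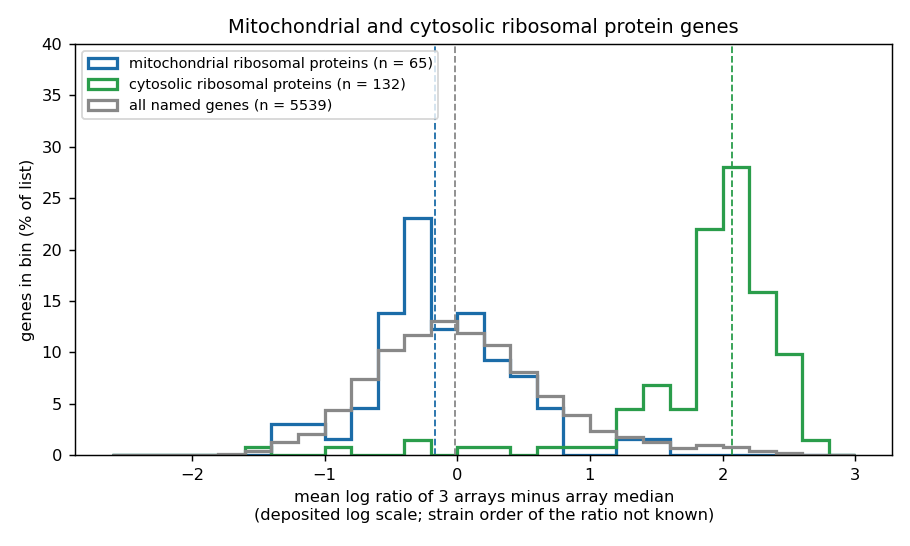
Share of genes (y axis, % of each list) by mean log ratio of 3 arrays minus the array median (x axis, deposited log scale, bins of 0.2 units) for 65 mitochondrial ribosomal protein genes (blue), 132 cytosolic ribosomal protein genes (green) and all 5539 named genes (grey). Dashed lines are the medians at −0.17, 2.07 and −0.02; the blue outline lies over the grey one and the green outline lies apart on the high side.

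The rest of the apparatus of mitochondrial gene expression also lay near the middle of the array. Of 31 mitochondrial translation factors and activators, 1 was called high (3.23%) and 5 low (16.1%), where 16.0% and 12.5% of all genes were, with a median of −0.15 (−0.25 without replicate 3). IFM1, the initiation factor gene, had −1.38, −1.03 and −0.68 (mean −1.03 ± 0.35, SD, n = 3; adjusted p = 0.00532). MTG1, a GTPase gene of ribosome assembly, had a mean of −0.97 (adjusted p = 0.00844), and the elongation factor gene MEF1 −0.81 (adjusted p = 0.0258). PET309, an activator of cytochrome oxidase translation, had −0.71 (adjusted p = 0.0333). Of 13 mitochondrial tRNA synthetase genes 1 (7.69%), SLM5 for asparagine, was called high (0.71, adjusted p = 0.0342). Their median was −0.15, and between −0.10 and −0.03 with 1 array left out. Of 11 genes of mitochondrial DNA maintenance and transcription none was called by limma, and 0 had an unadjusted p under 0.05. Those farthest from 0 were the DNA-packaging gene ABF2 at −0.58 (adjusted p = 0.129) and the nuclease gene NUC1 at −0.53 (adjusted p = 0.158). Both were called without replicate 1 (adjusted p = 0.00912 and 0.0253). The median of the 11 was −0.14, and 0.02 without replicate 1.

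Nuclear genes of the respiratory chain and ATP synthase had a median of 0.14, with 4 of 34 called high (11.8%) and 3 low (8.82%), where 16.0% and 12.5% of all genes were. CYT1, cytochrome c1, had 0.98, 1.66 and 0.61 (mean 1.08 ± 0.53, SD, n = 3; adjusted p = 0.00552), and CYC1, cytochrome c, had a mean of 0.77 (adjusted p = 0.022). COX7, a cytochrome oxidase subunit, had −0.96 (adjusted p = 0.0133), and NDI1, the internal NADH dehydrogenase, −0.78 (adjusted p = 0.0413). Of 32 mitochondrial import and folding genes 5 were called high (15.6%) and 2 low (6.25%). Their median was 0.30, but 0.18 without replicate 2 and 0.047 with run medians subtracted. TOM71, a receptor of the outer membrane, had 0.96 (adjusted p = 0.00954), TIM44, a part of the import motor, 0.96 (adjusted p = 0.0127), and ERV1, a sulfhydryl oxidase of the intermembrane space, 0.89 (adjusted p = 0.0105). TIM18, a subunit of the carrier translocase, had −0.93 (adjusted p = 0.0142). TOM71 and ERV1 lie in the displaced stretch. With replicate 1 moved their means were 0.80 (limma adjusted p = 0.0104) and 0.73 (adjusted p = 0.0175), and both were still called. In the moved setting 10 import genes (31.2%) were called high and 3 low (9.38%), where 18.4% and 15.2% of all genes were. In that setting, with the same background, 6 of the 34 respiratory chain genes were called high (17.6%) and 4 low (11.8%). Of the 31 translation factor genes 1 was called high (3.23%) and 7 low (22.6%). Of the 13 called genes named from these lists, 7 were still called without replicate 1, 6 without replicate 2 and 0 without replicate 3. The share of all named genes called in these fits of 2 arrays is not given here. Without replicate 3 the cytosolic gene RPS28A, with a 3-array mean of 2.77, had a limma adjusted p of only 0.0272, against 3.5e-17 without replicate 1. The 0 is therefore not read as a trait of these 13 genes.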

How the data were processed

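Per the labels, RNA of both strains was hybridised to each of 3 arrays. The deposited value table holds 1 log ratio per spot. A log2 and a natural log scale cannot be told apart in it, so values are kept on the deposited scale. The direction, the scanner software and the authors' normalization are each not given in the sources used here, and channel intensities were not analysed here. Of 13056 spots, 11138 had 1 gene symbol in the platform annotation, 0 had several and 1918 had none. Repeated spots were averaged and array medians subtracted. limma 3.58.1 (R 4.3.3; lmFit, eBayes, prior of 13.3 degrees of freedom) tested the mean of 3 arrays against 0, with Benjamini-Hochberg adjustment over all genes. The fit was checked on simulated arrays. Lists are described by counts and medians, with no set test. The members and lists were chosen with earlier results of these data known. Named genes are the called members, the 4 with the widest spread, the 4 nearest to 0, up to 4 called members of each comparison list (2 where none was called), and YAP1; members named for their place in the ribosome or in the displaced runs were chosen after their values were seen. The number of arrays limits the precision.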

Additional observations from a re-analysis of the deposited data

How the results depend on the processing

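Each array holds both strains, so each log ratio already pairs them, and the fit tested these ratios against 0. No further pairing was possible because the replicate numbers name arrays of 1 group. The settings that move or leave out replicate 1 in the last 4 runs, and those that leave out members, were chosen after seeing the data. With no centring 64 members were called, 0 high and 64 low (median −2.17). As deposited, 98.4%, 98.9% and 96.9% of all named genes lay below 0 on replicates 1, 2 and 3. Centred on the unnamed positions 32 were called, 32 high and 0 low (median 0.63). The median of these positions lay at −0.70, −1.02 and −0.66 from the named-gene median, so this centring moves all genes up. Both settings shift every gene alike, and the share of all genes called in them is not given here. The side of 0 on which genes lie therefore depends on the centring, while their order among named genes does not. The high count was 4 when centred on all spots, after quantile normalization, without genes with discordant spots and with the trend on spot scatter removed, 5 with replicate 1 left out in the last 4 runs, and 6 of 14 with it moved. With 1 array left out the total was 2 to 11, the high count 1 to 4 and the low count 1 to 7. The share of all genes called in those fits is not given here either. The median was −0.26 without members in the last 4 runs. With the trend on spot scatter removed, mitochondrial minus cytosolic was −1.73 and large minus small 0.030. Large minus small was 0.08 to 0.32 with 1 array left out. Bacterial counterpart minus mitochondria-specific was −0.066 from the first spot alone and 0.26 from the last. YAP1 was not called centred on the unnamed positions (−0.0046, limma adjusted p = 0.989), from the last spot alone (−0.32, adjusted p = 0.452) or with the trend removed (−0.21, adjusted p = 0.611), and its mean was −1.09 to −0.48 with 1 array left out. Centred on the unnamed positions none of the 7 low members was called low. The median of the import genes was 0.095 with the trend removed. That of the translation factors was between −0.38 (trend removed) and −0.0068 (without genes with discordant spots) among settings that keep the centring on named genes. That of the 13 further proteins was 0.010 to 0.15 with 1 array left out and −0.023 from the last spot alone. Means of named genes changed sign in these settings. With no centring they were −1.06 for IMG1, −1.91 for MRP17, −1.98 for MRPL10, −0.52 for MRPL35, −0.66 for MRPL51, −1.82 for MRPS12 and −1.86 for MRPS9. With run medians subtracted they were −0.079 for MRP17, −0.080 for MRPL10, 0.078 for MRPL28, −0.13 for MRPS12 and −0.023 for MRPS9. From the last spot alone they were −0.040 for MRP17, −0.033 for MRPL10 and 0.072 for MRPL28. When replicate 1 was moved by 16 spots in the last 4 runs they were −0.27 for MRP17 and 0.14 for MRPL25. With replicate 1 left out in the last 4 runs they were −0.24 for MRP17 and 0.14 for MRPL25. Centred on the unnamed positions they were 0.75 for MRP49, 0.37 for MRPL20, 0.79 for MRPL25, 0.76 for MRPL28, 0.049 for RSM22 and 0.036 for RSM25. From the first spot alone they were 0.16 for MRP49, −0.051 for MRPS12 and −0.20 for MRPS9. With the trend on spot scatter removed they were −0.69 for MRPL10, 0.11 for MRPL25 and 0.21 for MRPL28. Centred on all spots they were 0.035 for MRPL25 and 0.0034 for MRPL28. After quantile normalization they were 0.047 for MRPL25. With 1 array left out the ranges were −0.24 to 0.41 for MRP17, −0.15 to 0.056 for MRP49, −0.15 to 0.18 for MRPL10, −0.18 to 0.14 for MRPL25, −0.15 to 0.050 for MRPL28, −0.38 to 0.87 for MRPS12 and −0.31 to 0.74 for MRPS9. The cause of these changes was not tested, beyond the shift that centring itself adds and the fewer arrays of such fits.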

Other observations

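The displaced stretch of replicate 1 touches genes beyond the mitochondrial ribosome. Of the 453 genes in the last 4 runs, 162 were called with replicate 1 moved by 16 spots, against 84 as listed. Over all 5539 named genes, 1863 were called with replicate 1 moved, 1021 high and 842 low, against 1581 as listed. As listed, 12 genes had a value under −0.9 on replicate 1 and over 0.9 on replicate 2, limits chosen after the data were seen, and 10 of the 12 stood in these 4 runs. In each of the other 44 runs, the Pearson coefficient between replicates 1 and 2 across spots was between 0.403 and 0.764.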
